A study of Mus musculus with 60 samples.

Results

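Axon guidance ligands and their receptors were measured in mouse cancer-associated fibroblasts (CAFs), the activated fibroblasts of tumours, grown with lung cancer cells or alone. The genes were chosen by symbol: the semaphorins of classes 3 to 7, plexins, Slits, Robos, ephrins, Eph receptors, netrins and Unc5 receptors. The rule found 64 of the 48440 genes in each count table. They were 7 secreted class 3 semaphorins, 13 membrane semaphorins, 9 plexins, 3 Slits, 4 Robos, 8 ephrins, 13 Eph receptors, 3 netrins and 4 Unc5 receptors.

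These families were first known for steering growth cones, the motile tips of growing axons. Class 3 semaphorins are secreted and bind neuropilins, which signal through plexins. Other semaphorins stay in the membrane and bind plexins directly. Slits are large secreted proteins whose receptors are the Robos. Netrins act through Dcc, neogenin and the Unc5 receptors. Ephrins and Eph receptors are both held at the cell surface, so they signal between touching cells. In fibroblasts and tumours the same families are known for acting on cell migration, vessel growth and the sorting of cells into layers.

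The groups were defined by the cancer line and the culture format. In multicellular aggregates CAFs were mixed with 344SQ cells, with 393P cells or with no cancer cells, with 3 replicates each. In a second set of aggregates the 344SQ cells carried an shRNA called shZEB1 or a control shRNA called shCTL, again with 3 replicates each. In Boyden chambers a porous membrane separated CAFs from 344SQ cells, from 393P cells or from no cancer cells, with 5 biological replicates each and 3 technical libraries per replicate. The 344SQ and 393P lines are mouse lung adenocarcinoma lines, known as metastatic and poorly metastatic. The labels call the fibroblasts tCAFs without explaining the prefix and state that they were enriched by cell sorting before lysis. The sample titles of the CAFs-alone aggregates call the cells CAF-GFP. For the mice, no genotype, strain or age was found in the labels. Nothing says whether replicates were separate cultures or animals, so the p-values measure the spread between these samples, which may be technical.

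Total counts ran from 757717 to 1258751 per aggregate library, from 739530 to 2144803 per shRNA library and from 4182944 to 8542262 per Boyden replicate with its technical libraries added up. The 64 guidance genes took 2574 to 5159, 2003 to 7728 and 11709 to 26199 of these counts. The 10 fibroblast markers summed to 4480.3 to 5066 CPM (reads per 1e6 reads counted) with 344SQ, 6895 to 8407 CPM with 393P and 3782 to 6128 CPM in CAFs alone in aggregates, and 1325 to 5100.4 CPM in the shRNA table. The 15 carcinoma markers summed to 14.4 to 30.8 CPM with 344SQ, 22.5 to 95.1 CPM with 393P and 10.3 to 20.9 CPM in CAFs alone in aggregates. In Boyden chambers they summed to 61.3 to 77.0 CPM with 344SQ, 52.9 to 126 CPM with 393P and 74.1 to 97.0 CPM in CAFs alone. Cdh3 held 4926 of the Boyden counts, before Krt7 with 879. In the shRNA table the carcinoma markers summed to 39.1 to 1137 CPM with shZEB1 cells and 52.0 to 1532 CPM with shCTL cells, highest in shZEB1 replicate 2 and shCTL replicate 3. The 6 mural cell markers summed to 76.9 to 274 CPM in the shRNA table and to at most 4.48 CPM in the other tables. In bulk samples fewer cells of a type and less RNA per cell cannot be told apart.

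All CPM values were scaled with edgeR's TMM factors within their own table. Genes with too few counts were left out of the tests, and 27 of the 64 guidance genes passed this filter in aggregates, 29 in the shRNA table and 41 in Boyden chambers. Passing in all 3 tables were 23 genes, and 20 passed in none: Sema3g, Sema4a, Sema4f, Sema5b, Sema6c, Plxnb3, Slit1, Robo3, Robo4, Efna1, Efna3, Epha3, Epha5, Epha6, Epha8, Ephb1, Ephb6, Ntn5, Unc5a and Unc5d. A gene that passed only because it was high in 1 group had to differ between groups, so counts among the genes that passed are read only beside the share of all genes.

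Per kilobase of exon, the highest levels in CAFs alone in aggregates were those of the plexins Plxnb2 (66.7 CPM per kb) and Plxna1 (45.2 CPM per kb). Slit3, Unc5b and Slit2 came next, at 40.7, 26.7 and 24.2 CPM per kb. In Boyden chambers the secreted semaphorin Sema3c led the CAFs-alone samples at 90.4 CPM per kb, followed by Slit3 (52.8 CPM per kb), Plxnb2 (29.5 CPM per kb), Plxna1 (27.9 CPM per kb) and Sema3d (27.02 CPM per kb). Robos were low in both formats: Robo1, the best detected in aggregates, had 0.284 CPM per kb in CAFs alone in aggregates and 0.0749 CPM per kb in Boyden chambers.

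**Figure D1:**
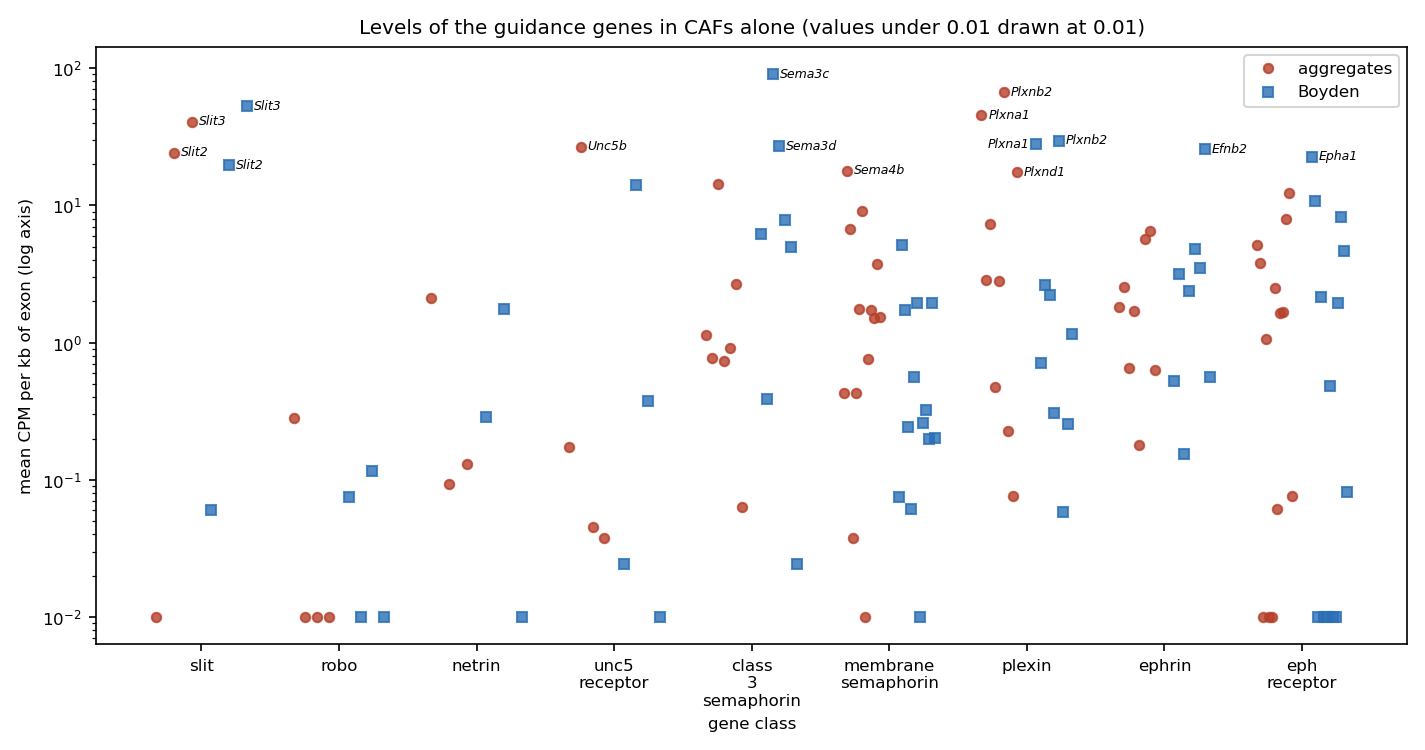
Mean levels of the 64 guidance genes in CAFs alone, in CPM per kb of exon on a log axis, by gene class; circles are aggregates (n = 3) and squares are Boyden chambers (n = 5), and genes above 15 CPM per kb are named. Plxnb2 was the highest in aggregates at 66.7 CPM per kb, and Sema3c in Boyden chambers at 90.4 CPM per kb.

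Genes with an adjusted p under 0.05 in edgeR's quasi-likelihood test, adjusted by Benjamini and Hochberg over all genes tested, are called below, or said to have changed. Each log2 change stands beside its standard error (SE). With 393P in aggregates 5 guidance genes were higher and 5 lower than in CAFs alone, or 10 of the 27 tested, against 10.7% of all genes tested (5.41% higher, 5.27% lower). With 344SQ in aggregates 3 were higher and 3 lower of 27, against 5.84% of all genes (3.48% higher, 2.36% lower). Between the lines in aggregates, 344SQ against 393P, 3 were higher and 4 lower of 27, against 4.15% of all genes (2.21% higher, 1.94% lower). Across the membrane 2 were higher and 11 lower of 41 with 344SQ, against 14.9% of all genes (7.43% higher, 7.44% lower), and 4 were higher and 12 lower of 41 with 393P, against 15.6% (7.68% higher, 7.96% lower). Between the lines across the membrane, 344SQ against 393P, 1 was higher and 3 were lower of 41, against 3.88% of all genes (2.52% higher, 1.36% lower). In aggregates the groups compared did not overlap for 12 of the 27 genes with 344SQ, 12 with 393P and 11 between the lines, against 21.5%, 26% and 17.9% of all genes. Across the membrane they did not for 10 of the 41 with 344SQ, 12 with 393P and 3 between the lines, against 9.93%, 12.4% and 4.46% of all genes. The median log2 change of the tested guidance genes was -0.18 with 393P and 0.05 with 344SQ in aggregates (all genes, -0.00 and -0.01). Across the membrane it was -0.12 with 344SQ and -0.15 with 393P (all genes, 0.01 and 0.00). The genes tested but not called had log2 changes of -0.94 to 0.82 with 344SQ (21 genes) and -0.67 to 0.79 with 393P (17 genes) in aggregates, and of -0.65 to 0.73 (28 genes) and -0.54 to 0.36 (25 genes) in that order across the membrane. Both lines were set against the same CAFs-alone samples, so their changes are not independent. With the first technical library alone of each Boyden replicate, 4 of 31 tested guidance genes were called with 344SQ and 5 of 31 with 393P. Beside them 500 and 609 of all 10417 genes were called. Slit2 was then called with neither line (adjusted p = 0.311 with 344SQ and 0.0999 with 393P).

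Summed levels of cell type markers moved with some of these groups, and their part in the changes was not tested. Across the membrane, where most called guidance genes were lower, the fibroblast markers summed to 5116 to 5687 CPM with 344SQ, 5396 to 5842 CPM with 393P and 6583 to 7209.7 CPM in CAFs alone, without overlap between either line and CAFs alone. This sum was mostly collagen RNA, with 347244 counts of Col1a2, 85909 of Col1a1 and 78701 of Col3a1 over the Boyden chambers. Fap had 224 counts there and Lum 39. The 8 endothelial markers there summed to 6.88 to 10.9 CPM with 344SQ, 7.99 to 10.95 CPM with 393P and 13.4 to 18.2 CPM in CAFs alone, again without overlap. This sum was mostly Kdr, with 1030 counts over the Boyden chambers against 70 of Pecam1 and 52 of Tek. Tie1, Erg and Emcn had 0 counts there. In aggregates the carcinoma markers summed to 22.5 to 95.1 CPM with 393P and 10.3 to 20.9 CPM in CAFs alone, without overlap. With 344SQ they summed to 14.4 to 30.8 CPM, which overlapped both. Krt8 held 50 of these counts over all aggregates and Cldn4 45. The fibroblast markers summed to 6895 to 8407 CPM with 393P, above every aggregate library with 344SQ or of CAFs alone. In aggregates the 8 leukocyte markers summed to 23.3 to 27.9 CPM with 344SQ, 6.57 to 25.1 CPM with 393P and 26.1 to 39.6 CPM in CAFs alone. Most of these counts were of Cd68 (137), before Csf1r (38) and Cd14 (30), and Ptprc and Adgre1 had 0. The 8 Schwann cell and neural markers, which mark cells known for guidance genes, summed in aggregates to 4.66 to 8.49 CPM with 344SQ, 2.09 to 5.63 CPM with 393P and 6.89 to 23.8 CPM in CAFs alone, with 3, 4 and 2 of the 8 at 0. Mbp and Tubb3 held 24 counts each of the neural markers over all aggregates, with Sox10 at 2 and Gfap at 0. With 393P the leukocyte sum and the neural sum both lay below those of CAFs alone in every library.

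**Figure D2:**
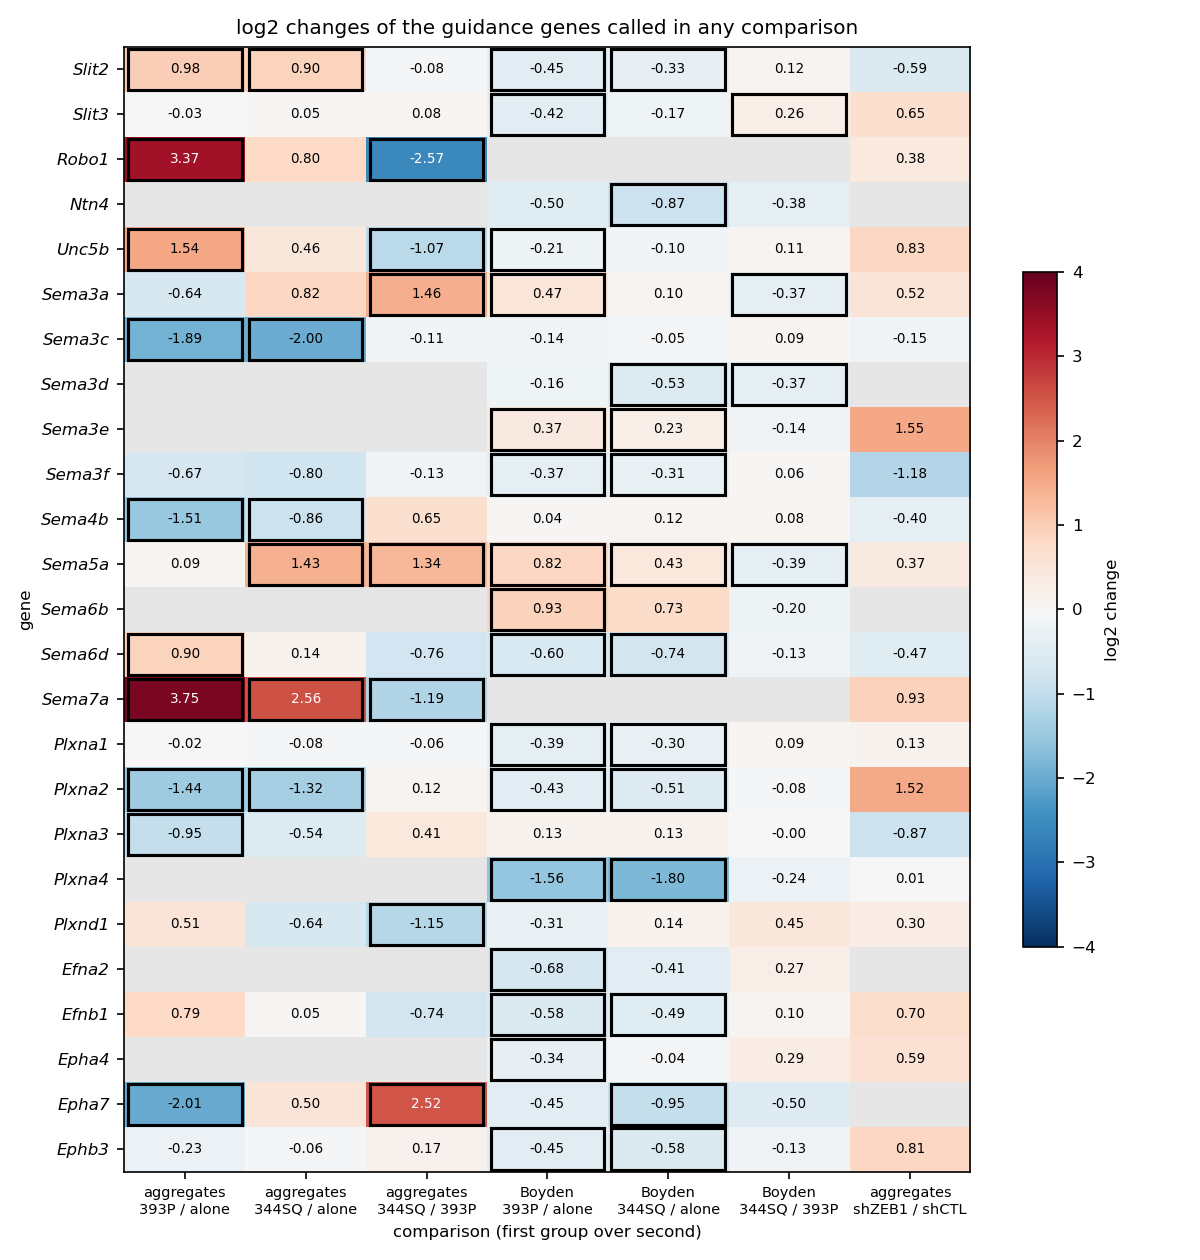
Log2 changes of the 25 guidance genes that changed in at least 1 comparison within a table; columns are comparisons, written as first group over second, red is higher and blue is lower in the first group, black frames mark adjusted p under 0.05, and grey cells were not tested. Slit2 was framed red in both aggregate comparisons with CAFs alone (0.98 and 0.90) and framed blue in both Boyden comparisons (-0.45 and -0.33).

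The promoters of 5 of these genes are shown because their levels carry the main contrasts: Slit2, Robo1, Unc5b and Sema7a, which were higher with 393P in aggregates, and Sema5a, which was higher with 344SQ in aggregates. Each runs from 250 bases before to 50 bases after the start of the RefSeq transcript (GRCm38.p6) and is written 5′ to 3′ on the gene's strand. Capitals mark matches, on either strand, to the GC box GGGCGG, which Sp1-type factors bind, to the TATA box TATAAA and to TGGGAA, the core of the site of the Notch effector RBPJ. Neighbouring GC boxes in the Sema5a promoter share a base.
Slit2, chr5:47982905-47983204 (plus strand): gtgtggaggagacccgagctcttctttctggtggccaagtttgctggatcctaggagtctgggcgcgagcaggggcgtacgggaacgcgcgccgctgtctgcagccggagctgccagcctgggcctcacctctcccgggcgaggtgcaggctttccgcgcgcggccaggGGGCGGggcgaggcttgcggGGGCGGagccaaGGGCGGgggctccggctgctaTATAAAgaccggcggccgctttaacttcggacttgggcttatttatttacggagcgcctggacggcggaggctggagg
Robo1, chr16:72662899-72663198 (plus strand): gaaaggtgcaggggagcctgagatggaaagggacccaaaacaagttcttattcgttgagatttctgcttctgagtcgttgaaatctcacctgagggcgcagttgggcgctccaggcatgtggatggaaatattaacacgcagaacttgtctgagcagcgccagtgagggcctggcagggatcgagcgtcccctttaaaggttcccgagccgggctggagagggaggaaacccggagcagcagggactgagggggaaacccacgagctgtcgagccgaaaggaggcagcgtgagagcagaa
Unc5b, chr10:60831532-60831831 (minus strand): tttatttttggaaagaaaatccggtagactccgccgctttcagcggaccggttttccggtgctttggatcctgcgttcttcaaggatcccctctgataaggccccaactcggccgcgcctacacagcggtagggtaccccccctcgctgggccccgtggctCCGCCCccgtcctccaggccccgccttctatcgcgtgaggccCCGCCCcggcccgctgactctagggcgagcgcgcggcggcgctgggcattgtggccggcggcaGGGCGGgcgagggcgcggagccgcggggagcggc
Sema7a, chr9:57939862-57940161 (plus strand): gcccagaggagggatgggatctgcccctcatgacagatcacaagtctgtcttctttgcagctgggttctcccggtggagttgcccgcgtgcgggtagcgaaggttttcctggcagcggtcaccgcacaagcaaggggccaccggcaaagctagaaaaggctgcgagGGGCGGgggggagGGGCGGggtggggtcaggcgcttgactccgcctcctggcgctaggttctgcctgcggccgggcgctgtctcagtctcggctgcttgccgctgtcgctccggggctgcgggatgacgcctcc
Sema5a, chr15:32244563-32244862 (plus strand): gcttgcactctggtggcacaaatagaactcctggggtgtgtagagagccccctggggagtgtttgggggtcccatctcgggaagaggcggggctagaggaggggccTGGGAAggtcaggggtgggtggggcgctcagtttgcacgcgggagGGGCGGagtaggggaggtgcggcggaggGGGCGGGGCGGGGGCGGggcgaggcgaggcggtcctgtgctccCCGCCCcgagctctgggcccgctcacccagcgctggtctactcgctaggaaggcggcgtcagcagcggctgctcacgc
The GC box stood 3 times in the Slit2 promoter, 3 times in that of Unc5b, 2 times in that of Sema7a and 5 times in that of Sema5a, and no match lay in the Robo1 window. The Slit2 promoter held a TATA box and the Sema5a promoter an RBPJ core. Of all 32851 RefSeq promoters of this length, 35.7% held the GC box, 13.6% the TATA box and 25.6% the RBPJ core. RefSeq promoters were found for 55 of the 64 genes, 71 promoters in all, and 49, 2 and 17 of these held the GC box, the TATA box and the RBPJ core; the other TATA box was in the Efnb2 promoter. The Robo1 window lies inside the longer GENCODE gene, which spans chr16:72308306-73046095 on the plus strand.

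Among the Slits, the secreted Robo ligands, Slit2 rose with both lines in aggregates and fell with both lines across the membrane. In aggregates it was 1.86-fold higher with 344SQ and 1.97-fold higher with 393P, and across the membrane it was 1.26-fold lower and 1.37-fold lower in that order, each against CAFs alone. In aggregates Slit2 was at 957, 1410.0 and 1062 CPM with 344SQ, 1263, 1323 and 1043 CPM with 393P and 478, 709.7 and 658 CPM in CAFs alone. Every library with either line was above every library of CAFs alone, with log2 changes of 0.90 ± 0.17 (adjusted p = 0.00105) with 344SQ and 0.98 ± 0.17 (adjusted p = 0.000167) with 393P. Across the membrane Slit2 was at 427, 363, 439.5, 364 and 386 CPM with 344SQ, 368, 402, 358, 351 and 339.6 CPM with 393P and 438, 530.3, 482, 511 and 525 CPM in CAFs alone. The order was turned round there, with log2 changes of -0.33 ± 0.07 (adjusted p = 0.00122) with 344SQ and -0.45 ± 0.07 (adjusted p = 5.25e-05) with 393P. All 5 replicates with 393P lay below those of CAFs alone, and 1 of the replicates with 344SQ overlapped them. Slit2 (ENSMUSG00000031558.15) lies at chr5:47983138-48307733 on the plus strand in mm10 (GENCODE M21 annotation), with no exon shared with another gene.

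Slit3, the other Robo ligand that passed the filter, was not called in aggregates. In aggregates Slit3 was at 216, 329 and 219 CPM with 344SQ, 231, 237 and 254 CPM with 393P and 189.6, 309 and 241 CPM in CAFs alone. These groups overlapped, and the log2 changes were 0.05 ± 0.18 (adjusted p = 0.939) with 344SQ and -0.03 ± 0.18 (adjusted p = 0.963) with 393P. Across the membrane Slit3 was at 304, 315, 231, 266 and 309 CPM with 344SQ, 241, 235, 242, 225 and 249.9 CPM with 393P and 326, 304, 301, 320.4 and 351 CPM in CAFs alone. Slit3 fell with 393P (-0.42 ± 0.07, adjusted p = 0.000202), and the change with 344SQ was -0.17 ± 0.07 (adjusted p = 0.117). The difference between the lines across the membrane, 344SQ against 393P, was 0.26 ± 0.07 (adjusted p = 0.0429), and it no longer passed the threshold without 344SQ replicate 1, 2 or 5 or 393P replicate 1, 2, 3, 4 or 5 (adjusted p from 0.0601 to 0.154).

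Of the Robos, the receptors of the Slits, Robo1 rose with 393P in aggregates, where it was 10.4-fold higher than in CAFs alone. In aggregates Robo1 was at 13.4, 6.06 and 4.66 CPM with 344SQ, 29.1, 74.5 and 39.7 CPM with 393P and 1.72, 3.96 and 8.36 CPM in CAFs alone. The 3 libraries with 393P stood above all others in the table, with a log2 change of 3.37 ± 0.47 (adjusted p = 4.32e-06), while 344SQ overlapped CAFs alone (0.80 ± 0.63, adjusted p = 0.582). The difference between the lines, 344SQ against 393P, was -2.57 ± 0.42 (adjusted p = 0.000142). Robo1 passed the filter in aggregates through the 393P libraries, since CAFs alone held only 2, 3 and 8 counts of it and 344SQ libraries 13, 5 and 5. Across the membrane Robo1 was at 1.15, 0.521, 0.834, 1.97 and 1.17 CPM with 344SQ, 1.95, 0.959, 0.79, 0.152 and 1.88 CPM with 393P and 1.79, 1.096, 1.30, 1.25 and 0.749 CPM in CAFs alone. These levels were too low to pass the filter, and the groups overlapped. Robo2 stayed at or under 1.21 CPM in every aggregate and Boyden library. Robo1 (ENSMUSG00000022883.10) lies at chr16:72308306-73046095 on the plus strand.

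**Figure D3:**
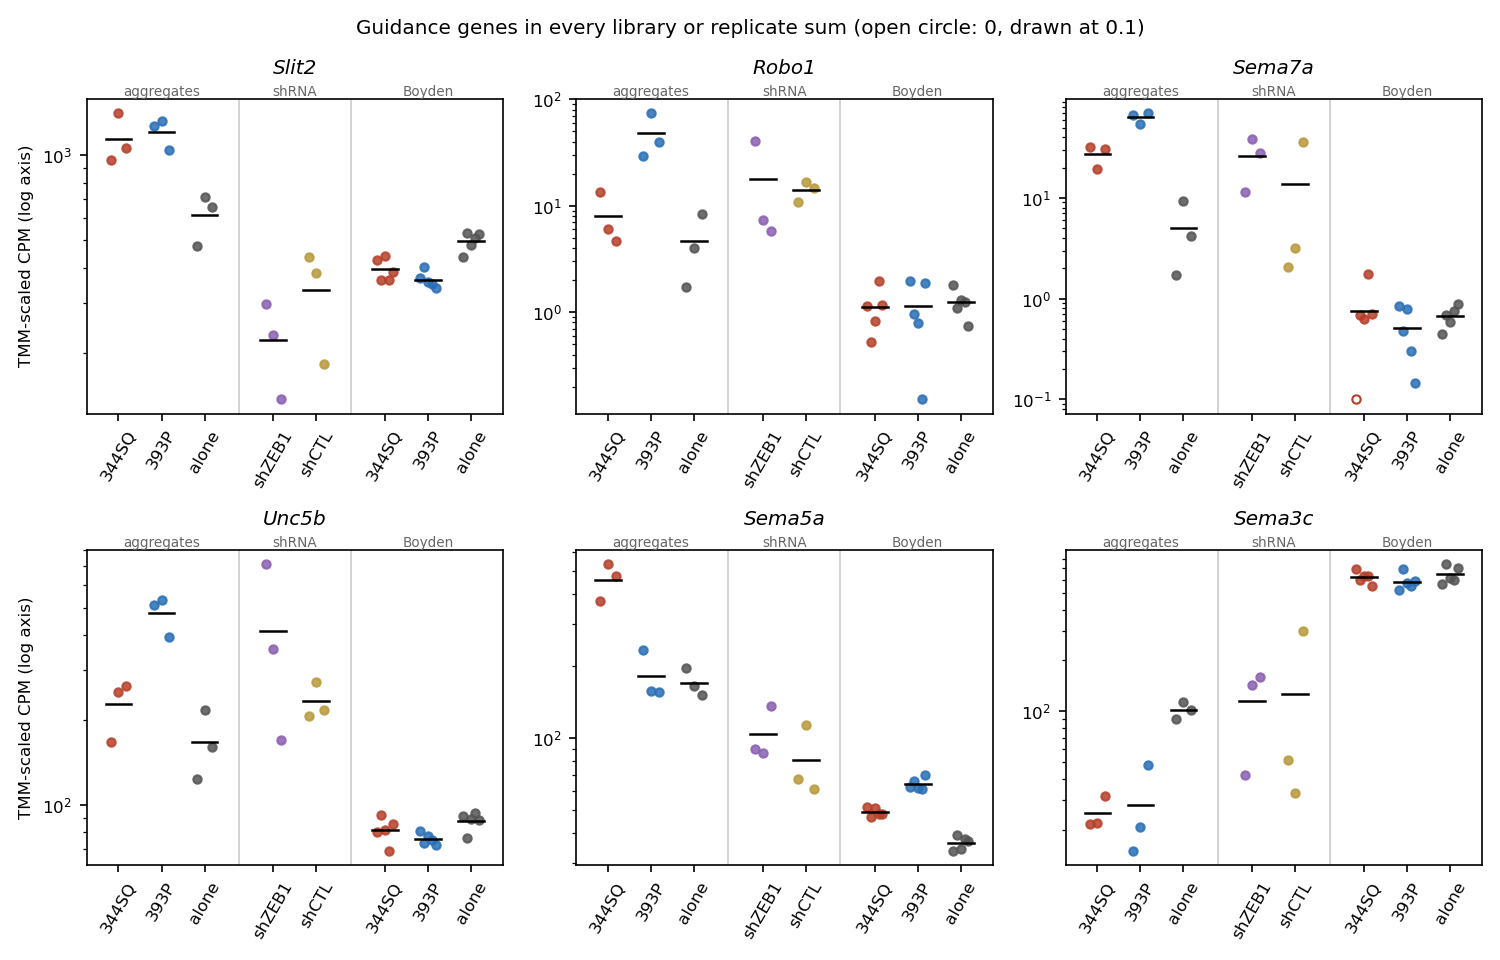
Levels of Slit2, Robo1, Sema7a, Unc5b, Sema5a and Sema3c in TMM-scaled CPM on log axes; each point is a library or, for Boyden chambers, a replicate sum, bars are group means, and an open circle at 0.1 marks a level of 0. Slit2 was above CAFs alone with both lines in aggregates and below with both across the membrane, and Sema3c was lower with both lines in aggregates.

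Unc5b, a netrin receptor of vessels and axons, rose with 393P in aggregates, where it was 2.901-fold higher than in CAFs alone and had the highest level per kilobase of all 64 genes (76.5 CPM per kb). In aggregates Unc5b was at 168, 251 and 265 CPM with 344SQ, 510.4, 534 and 393 CPM with 393P and 124, 217 and 159.9 CPM in CAFs alone. The lowest library with 393P stood above the highest of both other groups, with log2 changes of 1.54 ± 0.19 (adjusted p = 1e-06) with 393P and 0.46 ± 0.20 (adjusted p = 0.217) with 344SQ. Between the lines, 344SQ against 393P, it was -1.07 ± 0.19 (adjusted p = 0.000396). Across the membrane Unc5b was at 80.5, 92.2, 81.7, 68.8 and 85.4 CPM with 344SQ, 80.99, 73.1, 77.5, 75.3 and 71.9 CPM with 393P and 91.5, 76.6, 88.96, 93.3 and 88.5 CPM in CAFs alone. A small fall with 393P passed the threshold (-0.21 ± 0.07, adjusted p = 0.0437), with overlapping replicates, but not without 393P replicate 2, 3, 4 or 5 or CAFs-alone replicate 1, 3, 4 or 5 (adjusted p from 0.0528 to 0.123), and the log2 change with 344SQ was -0.10 ± 0.07 (adjusted p = 0.387). The 8 endothelial markers, endothelium being a known site of Unc5b, summed in aggregates to 5.14 to 11.2 CPM with 344SQ, 4.69 to 6.34 CPM with 393P and 0 to 5.23 CPM in CAFs alone. Cdh5 and Tie1 among them had 0 counts in aggregates. Unc5b (ENSMUSG00000020099.7) lies at chr10:60762593-60831581 on the minus strand.

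The netrins themselves were low. Ntn1, an attractant of commissural axons, passed the filter in aggregates, at 14.4, 27.9 and 27.1 CPM with 344SQ, 11.3, 11.1 and 3.13 CPM with 393P and 8.62, 10.6 and 20.9 CPM in CAFs alone. Its log2 changes of 0.79 ± 0.42 (adjusted p = 0.36) with 344SQ and -0.60 ± 0.47 (adjusted p = 0.524) with 393P did not pass. Across the membrane Ntn4 was at 4.398, 3.47, 3.75, 3.93 and 2.11 CPM with 344SQ, 4.33, 3.997, 4.90, 5.17 and 4.78 CPM with 393P and 5.51, 6.17, 7.21, 5.01 and 8.73 CPM in CAFs alone. Ntn4, a netrin of basement membranes, fell with 344SQ (-0.87 ± 0.20, adjusted p = 0.00302), with all 5 replicates below those of CAFs alone, and the log2 change with 393P was -0.50 ± 0.18 (adjusted p = 0.0595). Ntn4 had at most 1 count in any aggregate library.

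The class 3 semaphorins, secreted ligands of neuropilins and plexins, had Sema3c among them, which fell with both lines in aggregates and was 3.99-fold lower with 344SQ and 3.71-fold lower with 393P than in CAFs alone. In aggregates Sema3c was at 21.6, 21.8 and 31.7 CPM with 344SQ, 15.01, 20.6 and 48.1 CPM with 393P and 89.6, 114 and 102 CPM in CAFs alone. All 6 co-culture libraries lay below the 3 of CAFs alone, with log2 changes of -1.998 ± 0.29 (adjusted p = 1.59e-05) with 344SQ and -1.89 ± 0.28 (adjusted p = 1.08e-05) with 393P. The highest of the 6, 393P replicate 3, was also the aggregate library with the most carcinoma marker counts. Across the membrane Sema3c was at 698, 602, 629, 628 and 552 CPM with 344SQ, 522, 690.4, 576, 555 and 587 CPM with 393P and 567, 741, 615, 597 and 707 CPM in CAFs alone. There the 3 groups overlapped, with log2 changes of -0.05 ± 0.08 (adjusted p = 0.712) with 344SQ and -0.14 ± 0.08 (adjusted p = 0.255) with 393P. Sema3c (ENSMUSG00000028780.13) lies at chr5:17574281-17730268 on the plus strand.

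Sema3a, a repellent of many axons, was higher with 344SQ than with 393P in aggregates and lower across the membrane. In aggregates Sema3a was at 28.8, 25.5 and 27.99 CPM with 344SQ, 9.38, 5.55 and 15.7 CPM with 393P and 16.4, 23.8 and 7.32 CPM in CAFs alone. The log2 difference between the lines, 344SQ against 393P, was 1.46 ± 0.40 (adjusted p = 0.0263), with all 344SQ libraries above all 393P libraries, and neither line differed from CAFs alone past the threshold. That difference no longer passed without 344SQ replicate 1, 2 or 3 or 393P replicate 1 or 2 (adjusted p from 0.0583 to 0.199) or with DESeq2 (adjusted p = 0.107). Across the membrane Sema3a was at 105, 89.9, 93.4, 91.1 and 74.6 CPM with 344SQ, 116, 134, 110.3, 116 and 114 CPM with 393P and 79.1, 88.8, 85.5, 83.3 and 89.1 CPM in CAFs alone. Here 393P stood above the other groups, with log2 changes of 0.47 ± 0.07 (adjusted p = 8.24e-05) against CAFs alone and -0.37 ± 0.07 (adjusted p = 0.00247) for 344SQ against 393P. That difference between the lines was lost with the first technical library alone of each replicate (adjusted p = 0.148). The log2 change with 344SQ was 0.10 ± 0.08 (adjusted p = 0.435).

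Sema3d, Sema3e and Sema3f, 3 further secreted semaphorins, changed across the membrane. Across the membrane Sema3d was at 167, 153, 174, 166 and 141 CPM with 344SQ, 198, 242, 182, 195 and 224 CPM with 393P and 199.7, 278, 229, 209.8 and 244 CPM in CAFs alone. Sema3d was lowest with 344SQ, below every replicate of the other groups, with log2 changes of -0.53 ± 0.09 (adjusted p = 7.07e-05) against CAFs alone and -0.37 ± 0.09 (adjusted p = 0.0103) against 393P, and the log2 change with 393P was -0.16 ± 0.08 (adjusted p = 0.214). Across the membrane Sema3e was at 80.5, 89.4, 92.7, 86.8 and 74.1 CPM with 344SQ, 90.2, 103, 83.8, 90.1 and 101 CPM with 393P and 71.2, 74.8, 70.4, 67.7 and 77.9 CPM in CAFs alone. Sema3e, a ligand of Plxnd1, rose with both lines, by 0.23 ± 0.07 (adjusted p = 0.0334) with 344SQ and 0.37 ± 0.07 (adjusted p = 0.000744) with 393P. All replicates with 393P stood above CAFs alone, and those with 344SQ overlapped them. With 344SQ its call was lost without 344SQ replicate 2, 3 or 4 or CAFs-alone replicate 1, 3 or 4 (adjusted p from 0.0574 to 0.106). Across the membrane Sema3f was at 21.03, 25.5, 16.9, 19.9 and 20.2 CPM with 344SQ, 17.5, 19.3, 20.5, 19.6 and 23.04 CPM with 393P and 26.98, 26.04, 22.9, 26.5 and 26.8 CPM in CAFs alone. Sema3f fell with both lines, with log2 changes of -0.31 ± 0.10 (adjusted p = 0.0385) with 344SQ and -0.37 ± 0.10 (adjusted p = 0.0114) with 393P, and 1 replicate of each line reached into the range of CAFs alone. With 344SQ the fall was lost without 344SQ replicate 1, 3, 4 or 5 or CAFs-alone replicate 1, 2, 4 or 5 (adjusted p from 0.0559 to 0.136). In aggregates Sema3e had 0, 1.21 and 0 CPM with 344SQ, 0.938, 2.38 and 4.18 CPM with 393P and 11.2, 2.64 and 11.5 CPM in CAFs alone, and did not pass the filter. Sema3a, Sema3c, Sema3d and Sema3e all lie on mouse chromosome 5.

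Among the membrane semaphorins, Sema7a, a lipid-anchored ligand of Plxnc1 and of integrins, rose with both lines in aggregates, 5.896-fold higher with 344SQ and 13.5-fold higher with 393P than in CAFs alone. In aggregates Sema7a was at 31.9, 19.4 and 30.8 CPM with 344SQ, 66.6, 53.9 and 70.0 CPM with 393P and 1.72, 9.25 and 4.18 CPM in CAFs alone. The 3 groups did not overlap, with log2 changes of 2.56 ± 0.42 (adjusted p = 0.000106) with 344SQ, 3.75 ± 0.38 (adjusted p = 1.62e-08) with 393P and -1.19 ± 0.28 (adjusted p = 0.00791) for 344SQ against 393P. The last of these did not pass without 344SQ replicate 2 (adjusted p = 0.0585). Sema7a passed the filter in aggregates through the co-culture libraries, since CAFs alone held only 2, 7 and 4 counts of it. Across the membrane Sema7a was at 0, 0.694, 0.625, 1.75 and 0.704 CPM with 344SQ, 0.838, 0.48, 0.79, 0.304 and 0.145 CPM with 393P and 0.447, 0.685, 0.591, 0.751 and 0.873 CPM in CAFs alone. It failed the filter there, with overlapping groups. Sema7a (ENSMUSG00000038264.7) lies at chr9:57940112-57962865 on the plus strand. Plxnc1, its plexin receptor, had 0 to 4.66 CPM in aggregates and failed the filter. In Boyden chambers Plxnc1 was at 0.956, 1.91, 2.501, 3.06 and 1.41 CPM with 344SQ, 2.79, 2.398, 2.37, 1.52 and 1.01 CPM with 393P and 2.09, 2.19, 1.18, 2.504 and 2.75 CPM in CAFs alone, with log2 changes of -0.13 ± 0.32 (adjusted p = 0.837) with 344SQ and -0.08 ± 0.30 (adjusted p = 0.892) with 393P.

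Sema5a, a transmembrane semaphorin with thrombospondin repeats, rose with 344SQ in both formats and with 393P across the membrane. In aggregates it was 2.69-fold higher with 344SQ than in CAFs alone. In aggregates Sema5a was at 371, 531 and 474 CPM with 344SQ, 232, 157 and 156 CPM with 393P and 196, 164 and 151 CPM in CAFs alone. With 344SQ every library stood above the rest, with log2 changes of 1.43 ± 0.18 (adjusted p = 2.47e-06) against CAFs alone and 1.34 ± 0.18 (adjusted p = 8.23e-06) against 393P, and with 393P the change was 0.09 ± 0.18 (adjusted p = 0.858). Across the membrane Sema5a was at 51.4, 46.5, 50.6, 48.1 and 47.9 CPM with 344SQ, 62.4, 66.03, 61.8, 60.9 and 70.1 CPM with 393P and 33.7, 39.2, 34.4, 37.7 and 37.1 CPM in CAFs alone. The 3 groups did not overlap, and the order of the lines was reversed. Log2 changes were 0.43 ± 0.07 (adjusted p = 9.18e-05) with 344SQ, 0.82 ± 0.07 (adjusted p = 4.59e-09) with 393P and -0.39 ± 0.07 (adjusted p = 0.000488) for 344SQ against 393P. The last of these was lost with the first technical library alone of each replicate (adjusted p = 0.463). Sema5a (ENSMUSG00000022231.9) lies at chr15:32244810-32696341 on the plus strand.

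Sema4b, a class 4 membrane semaphorin, fell with both lines in aggregates. In aggregates Sema4b was at 53.5, 33.9 and 75.6 CPM with 344SQ, 35.7, 32.5 and 37.6 CPM with 393P and 92.2, 102 and 108 CPM in CAFs alone. All co-culture libraries lay below CAFs alone, with log2 changes of -0.86 ± 0.22 (adjusted p = 0.0144) with 344SQ and -1.51 ± 0.23 (adjusted p = 1.98e-05) with 393P. With 344SQ the call was lost without 344SQ replicate 1 or 2 or CAFs-alone replicate 3 (adjusted p from 0.0557 to 0.117) and with DESeq2 (adjusted p = 0.0516). Across the membrane Sema4b was at 29.8, 31.9, 32.1, 31.3 and 31.4 CPM with 344SQ, 31.6, 32.1, 31.8, 26.2 and 26.5 CPM with 393P and 32.3, 28.1, 29.2, 25.5 and 28.8 CPM in CAFs alone. These groups overlapped, with log2 changes of 0.12 ± 0.08 (adjusted p = 0.366) with 344SQ and 0.04 ± 0.08 (adjusted p = 0.783) with 393P.

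Sema6d, a ligand of Plxna1, rose with 393P in aggregates and fell with both lines across the membrane. In aggregates Sema6d was at 58.6, 48.5 and 22.4 CPM with 344SQ, 60.04, 90.4 and 65.8 CPM with 393P and 31.02, 43.6 and 42.9 CPM in CAFs alone. All libraries with 393P stood above CAFs alone (0.90 ± 0.27, adjusted p = 0.024), and those with 344SQ lay on both sides of them (0.14 ± 0.29, adjusted p = 0.873). The rise was lost without 393P replicate 2 or CAFs-alone replicate 1 or 3 (adjusted p from 0.0541 to 0.16) and with DESeq2 (adjusted p = 0.0856). Across the membrane Sema6d was at 15.1, 13.02, 10.6, 10.5 and 11.97 CPM with 344SQ, 12.8, 15.7, 11.5, 11.6 and 15.9 CPM with 393P and 21.2, 20.7, 19.4, 19.03 and 22.6 CPM in CAFs alone. Both co-culture groups lay below CAFs alone, with log2 changes of -0.74 ± 0.12 (adjusted p = 7.79e-05) with 344SQ and -0.60 ± 0.11 (adjusted p = 0.000626) with 393P. With the first technical library alone of each replicate these changes were -0.065 (adjusted p = 0.912) and -0.25 (adjusted p = 0.494) in that order. Across the membrane Sema6b was at 1.72, 2.26, 1.25, 2.84 and 2.82 CPM with 344SQ, 2.79, 0.959, 2.21, 3.499 and 2.898 CPM with 393P and 0.894, 1.096, 1.18, 2.13 and 1.12 CPM in CAFs alone. Sema6b, of the same class, passed the test with 393P (0.93 ± 0.32, adjusted p = 0.0431), with overlapping replicates, but not without 393P replicate 1, 3, 4 or 5 or CAFs-alone replicate 1, 2, 3 or 5 (adjusted p from 0.0564 to 0.139), and its log2 change with 344SQ was 0.73 ± 0.34 (adjusted p = 0.159). DESeq2 gave Sema6b no adjusted p with 393P.

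The plexins, receptors of the semaphorins, fell wherever they differed from CAFs alone. Plxna2 fell with both lines in both formats. In aggregates Plxna2 was at 24.7, 25.5 and 10.3 CPM with 344SQ, 21.6, 19.03 and 13.6 CPM with 393P and 53.4, 54.2 and 40.8 CPM in CAFs alone. All co-culture libraries lay below CAFs alone, with log2 changes of -1.32 ± 0.31 (adjusted p = 0.0062) with 344SQ and -1.44 ± 0.30 (adjusted p = 0.00115) with 393P. Across the membrane Plxna2 was at 9.94, 6.77, 8.13, 9.18 and 9.15 CPM with 344SQ, 9.91, 8.47, 10.7, 7.76 and 8.403 CPM with 393P and 12.8, 10.3, 11.3, 11.02 and 15.6 CPM in CAFs alone. The log2 changes here were -0.51 ± 0.15 (adjusted p = 0.0183) with 344SQ, with no overlap, and -0.43 ± 0.14 (adjusted p = 0.033) with 393P, where 1 replicate overlapped CAFs alone. The call with 344SQ was lost without 344SQ replicate 3 (adjusted p = 0.0714) in aggregates and without CAFs-alone replicate 5 (adjusted p = 0.0712) across the membrane, and that with 393P across the membrane without 393P replicate 2, 4 or 5 or CAFs-alone replicate 1 or 5 (adjusted p from 0.066 to 0.122).

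Plxna4, which transmits class 3 semaphorin signals, had the largest fall of all 41 guidance genes tested across the membrane, with either line. Across the membrane Plxna4 was at 11.5, 8.33, 7.29, 9.18 and 8.92 CPM with 344SQ, 12.6, 10.9, 7.59, 7.91 and 14.2 CPM with 393P and 32.05, 36.6, 27.9, 24.3 and 36.8 CPM in CAFs alone. Neither line's replicates overlapped those of CAFs alone, with log2 changes of -1.80 ± 0.16 (adjusted p = 5.91e-09) with 344SQ and -1.56 ± 0.15 (adjusted p = 7.6e-08) with 393P. In aggregates Plxna4 had 0 to 7.93 CPM and failed the filter. Across the membrane Plxna1 was at 195, 246, 181, 172 and 231 CPM with 344SQ, 185, 188, 204, 185 and 203 CPM with 393P and 289, 227, 239, 263 and 243 CPM in CAFs alone. Plxna1, among the most abundant plexins, fell with both lines, with log2 changes of -0.30 ± 0.08 (adjusted p = 0.0157) with 344SQ and -0.39 ± 0.08 (adjusted p = 0.00209) with 393P. Replicates with 344SQ overlapped CAFs alone, those with 393P did not, and the fall with 344SQ was lost without 344SQ replicate 3 or 4 or CAFs-alone replicate 1 (adjusted p from 0.0541 to 0.0567).

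In aggregates Plxna1 and Plxnb2, the plexins of highest level per kilobase, were not called with either line. In aggregates Plxna1 was at 384, 376 and 397 CPM with 344SQ, 353, 455 and 400.1 CPM with 393P and 326, 418 and 485 CPM in CAFs alone. In aggregates Plxnb2 was at 413, 476 and 497 CPM with 344SQ, 402, 452 and 474 CPM with 393P and 430.0, 558 and 558 CPM in CAFs alone. The groups overlapped for both genes. In aggregates Plxna3 was at 24.7, 47.3 and 46.6 CPM with 344SQ, 26.3, 34.1 and 28.2 CPM with 393P and 53.4, 60.8 and 58.5 CPM in CAFs alone. Plxna3, a receptor of Sema3f, fell with 393P (-0.95 ± 0.25, adjusted p = 0.0109), and its log2 change with 344SQ was -0.54 ± 0.25 (adjusted p = 0.268). The fall was lost without 393P replicate 1 (adjusted p = 0.0517) and with DESeq2 (adjusted p = 0.0594). In aggregates Plxnd1 was at 108, 64.3 and 69.04 CPM with 344SQ, 163, 178 and 197 CPM with 393P and 104, 159 and 119 CPM in CAFs alone. Plxnd1, the Sema3e receptor of vessels, was lower with 344SQ than with 393P (-1.15 ± 0.20, adjusted p = 0.000251), and its log2 changes against CAFs alone were -0.64 ± 0.20 (adjusted p = 0.0571) with 344SQ and 0.51 ± 0.19 (adjusted p = 0.087) with 393P.

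No ephrin or Eph receptor rose against CAFs alone in any of the 4 comparisons with a cancer line. Epha7, a receptor of the A ephrins, fell with 393P in aggregates and with 344SQ across the membrane. In aggregates Epha7 was at 34.96, 29.1 and 41.98 CPM with 344SQ, 1.88, 6.34 and 10.4 CPM with 393P and 28.4, 18.5 and 27.2 CPM in CAFs alone. It reached at most 10.4 CPM with 393P and was at least 18.5 CPM in CAFs alone, with log2 changes of -2.01 ± 0.41 (adjusted p = 0.000766) with 393P, 0.50 ± 0.32 (adjusted p = 0.476) with 344SQ and 2.52 ± 0.39 (adjusted p = 7.2e-05) for 344SQ against 393P. Across the membrane Epha7 was at 2.29, 2.08, 1.67, 3.72 and 2.82 CPM with 344SQ, 3.49, 3.84, 3.16, 4.87 and 2.32 CPM with 393P and 3.73, 3.97, 3.78, 5.88 and 6.61 CPM in CAFs alone. No replicate with 344SQ reached CAFs alone (-0.95 ± 0.25, adjusted p = 0.0114), while those with 393P overlapped it (-0.45 ± 0.22, adjusted p = 0.186).

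Ephb3, a receptor of the B ephrins, fell with both lines across the membrane. Across the membrane Ephb3 was at 35.8, 36.3, 34.2, 34.5 and 43.2 CPM with 344SQ, 40.2, 38.7, 39.2, 44.4 and 37.8 CPM with 393P and 56.2, 53.03, 52.5, 53.8 and 59.02 CPM in CAFs alone. The log2 changes were -0.58 ± 0.07 (adjusted p = 3.06e-06) with 344SQ and -0.45 ± 0.07 (adjusted p = 0.000106) with 393P, and no co-culture replicate reached the CAFs-alone range. In aggregates 49.4, 50.9 and 51.3 CPM with 344SQ lay just below 52.6, 52.9 and 52.3 CPM in CAFs alone, and 35.7, 62.6 and 34.5 CPM with 393P spanned both. Neither aggregate log2 change was called, -0.06 ± 0.24 (adjusted p = 0.947) with 344SQ and -0.23 ± 0.24 (adjusted p = 0.666) with 393P. Across the membrane Epha4 was at 18.5, 16.8, 15.01, 15.3 and 18.5 CPM with 344SQ, 12.8, 15.99, 13.3, 13.4 and 13.3 CPM with 393P and 15.8, 18.1, 17.01, 17.3 and 18.6 CPM in CAFs alone. Epha4, which binds ephrins of both classes, fell with 393P (-0.34 ± 0.10, adjusted p = 0.0206), where replicate 2 reached into the range of CAFs alone, though not without 393P replicate 1 or CAFs-alone replicate 5 (adjusted p from 0.0527 to 0.0555), and its log2 change with 344SQ was -0.04 ± 0.10 (adjusted p = 0.816).

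Efnb1, a transmembrane ephrin, fell with both lines across the membrane. Across the membrane Efnb1 was at 8.796, 10.1, 6.25, 8.31 and 9.15 CPM with 344SQ, 8.52, 7.99, 7.59, 6.39 and 9.42 CPM with 393P and 12.2, 10.1, 12.3, 13.1 and 12.1 CPM in CAFs alone. The log2 changes were -0.49 ± 0.14 (adjusted p = 0.0164) with 344SQ and -0.58 ± 0.13 (adjusted p = 0.00344) with 393P, with no co-culture replicate inside the range of CAFs alone, and the call with 344SQ was lost without 344SQ replicate 3 (adjusted p = 0.0648). With the first technical library alone of each replicate both calls were lost (adjusted p = 0.448 with 344SQ and 0.857 with 393P). The log2 change with 393P was then -0.11. Across the membrane Efna2 was at 4.78, 4.69, 4.79, 3.497 and 7.51 CPM with 344SQ, 2.93, 4.16, 4.58, 4.26 and 4.93 CPM with 393P and 7.303, 6.99, 5.67, 5.38 and 8.11 CPM in CAFs alone. Efna2, a lipid-anchored ephrin, fell with 393P to below every CAFs-alone replicate (-0.68 ± 0.19, adjusted p = 0.0145), though not without 393P replicate 1 or CAFs-alone replicate 5 (adjusted p from 0.0503 to 0.0505), and its log2 change with 344SQ was -0.41 ± 0.19 (adjusted p = 0.159). Across the membrane Efnb2 was at 178, 164, 181, 178 and 169 CPM with 344SQ, 188, 204, 179, 184 and 208 CPM with 393P and 189.7, 181, 178, 171 and 162 CPM in CAFs alone. Efnb2, the ephrin of highest level per kilobase there, overlapped in all groups.

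Epha1 counts are uncertain. The gene shares 236 exon bases with Zyx, the actin-binding zyxin, on the opposite strand, and the strand setting of the counting is not given in the sources used here. In aggregates Epha1 was at 4.11, 3.64 and 1.87 CPM with 344SQ, 2.81, 2.38 and 0 CPM with 393P and 18.1, 7.93 and 34.5 CPM in CAFs alone, and did not pass the filter. In the same groups Zyx was at 161 ± 25.6, 176 ± 27.1 and 325 ± 73.1 CPM (SD, n = 3). Across the membrane Epha1 was at 78.03 ± 6.09 CPM with 344SQ, 88.2 ± 6.18 CPM with 393P and 88.7 ± 6.201 CPM in CAFs alone, beside Zyx at 880.3 ± 79.8, 975 ± 42.9 and 1249 ± 81.2 CPM (SD, n = 5). In all, 15 of the 64 genes share exon bases with another gene, among them Plxna1 with 970 bases of an unnamed gene on the opposite strand and Plxna4 with 110 bases of an antisense gene.

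The change with each line was compared directly between the formats by fitting the aggregate and Boyden samples together, with 49 guidance genes tested. The format cannot be told apart from everything else that differs between the tables. With 393P the log2 change in aggregates was above that across the membrane for 7 genes and below it for 8, against 8.98% of all 15193 genes (5.32% above, 3.66% below). With 344SQ it was above for 5 and below for 4, against 4.73% (2.61% above, 2.13% below). Slit2 differed with both lines, by 1.27 ± 0.16 (adjusted p = 2.45e-07) with 344SQ and 1.51 ± 0.16 (adjusted p = 1.27e-09) with 393P, aggregates minus Boyden. Sema3c differed by -1.89 ± 0.26 (adjusted p = 1.81e-06) with 344SQ and -1.69 ± 0.25 (adjusted p = 3.36e-06) with 393P, and Sema4b by -0.93 ± 0.21 (adjusted p = 0.00278) with 344SQ and -1.48 ± 0.21 (adjusted p = 1.78e-06) with 393P. The Sema4b difference with 344SQ was lost with the first technical library alone of each Boyden replicate (adjusted p = 0.0956).

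The genes that rose with 393P in aggregates were read against the Boyden chambers too; both tests use the same 393P aggregate libraries, so the second is not independent. Robo1 passed the filter in aggregates through the 393P libraries, where it is high, and Sema7a through the libraries of both lines, where it is high. The difference was 4.23 ± 0.69 (adjusted p = 1.23e-05) for Sema7a, 3.55 ± 0.68 (adjusted p = 0.000189) for Robo1 and 1.84 ± 0.18 (adjusted p = 2.38e-10) for Unc5b. It was 1.60 ± 0.26 (adjusted p = 1.94e-05) for Sema6d, and it was above 0 too for Efnb1 (1.45 ± 0.32, adjusted p = 0.00142) and Plxnd1 (0.89 ± 0.24, adjusted p = 0.00886), which had not risen in aggregates past the threshold. With the Sema7a and Robo1 levels in Boyden chambers near 1 CPM, these 2 differences rest on few counts there. Those below 0 with 393P were Plxna3 (-1.002 ± 0.23, adjusted p = 0.00269), Sema5a (-0.66 ± 0.17, adjusted p = 0.00597), Plxna2 (-0.93 ± 0.30, adjusted p = 0.0419) and Epha7 (-1.52 ± 0.48, adjusted p = 0.034). Sema3e (-2.18 ± 0.55, adjusted p = 0.00605) and Epha1 (-3.42 ± 0.53, adjusted p = 6.08e-06) were also below 0. With the first technical library alone of each Boyden replicate the differences of Efnb1 (adjusted p = 0.183), Plxnd1 (adjusted p = 0.239) and Plxna3 (adjusted p = 0.222) were lost. That of Plxna2 was lost there too and with no filter on low counts. The Sema5a difference was lost without aggregate CAFs-alone replicate 1 (adjusted p = 0.0748), that of Sema3e without aggregate CAFs-alone replicate 1 (adjusted p = 0.0693), that of Epha7 without aggregate 393P replicate 1 or 2, aggregate CAFs-alone replicate 1 or 3, Boyden 393P replicate 4 or Boyden CAFs-alone replicate 1 or 3 (adjusted p from 0.0503 to 0.178) and that of Plxna2 without aggregate 393P replicate 2 or 3, aggregate CAFs-alone replicate 1 or 2, Boyden 393P replicate 1 or 3 or Boyden CAFs-alone replicate 2, 3 or 4 (adjusted p from 0.0612 to 0.151).

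With 344SQ the difference between the formats was 2.52 ± 0.70 (adjusted p = 0.0237) for Sema7a, 1.49 ± 0.40 (adjusted p = 0.0173) for Epha7, 1.04 ± 0.16 (adjusted p = 2.02e-05) for Sema5a and 0.62 ± 0.19 (adjusted p = 0.0463) for Unc5b. Epha1 differed by -2.49 ± 0.49 (adjusted p = 0.00065). The Unc5b difference was lost with relative log expression or upper-quartile scaling, and that of Sema7a with the replicate number as a block. With the first technical library alone of each Boyden replicate those of Unc5b, Sema7a and Epha7 were lost. Sema3e passed the test (adjusted p = 0.00022), but the 344SQ aggregates held only 1 count of it in all, so its fitted log2 difference depends on the prior count and is no measure of size. The Unc5b difference was lost without aggregate 344SQ replicate 2 or 3, aggregate CAFs-alone replicate 1 or 3, Boyden 344SQ replicate 1, 3, 4 or 5 or Boyden CAFs-alone replicate 1, 3, 4 or 5 (adjusted p from 0.0538 to 0.238), that of Sema7a without aggregate 344SQ replicate 3, aggregate CAFs-alone replicate 1 or 3 or Boyden CAFs-alone replicate 5 (adjusted p from 0.0539 to 0.108) and that of Epha7 without aggregate 344SQ replicate 3 or aggregate CAFs-alone replicate 2 (adjusted p from 0.0605 to 0.0829).

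The difference between the lines, 344SQ minus 393P, was also compared between the formats, a contrast added after the data were seen. It differed for 6 of the 49 genes, against 3.36% of all genes (1.4% above, 1.96% below). Above 0, and so more on the side of 344SQ in aggregates, were Epha7 (3.01 ± 0.48, adjusted p = 2.54e-05), Sema3a (1.84 ± 0.33, adjusted p = 0.000205) and Sema5a (1.70 ± 0.16, adjusted p = 1.5e-10). Below 0 were Robo1 (-2.55 ± 0.68, adjusted p = 0.0237), Plxnd1 (-1.63 ± 0.25, adjusted p = 1.59e-05) and Unc5b (-1.22 ± 0.18, adjusted p = 6.36e-06). That of Robo1 was lost without aggregate 344SQ replicate 2 or 3, aggregate 393P replicate 2 or Boyden 344SQ replicate 4 (adjusted p from 0.0616 to 0.116). It was also lost with the first technical library alone of each Boyden replicate (adjusted p = 0.465). Sema5a and Sema3a were thus higher with 344SQ than with 393P in aggregates and lower with 344SQ than with 393P across the membrane, each difference past the threshold in its own table. In aggregates the Sema3a difference was lost in 5 of 6 fits that left out a replicate, and with DESeq2. Across the membrane both were lost with the first technical library alone of each replicate (adjusted p = 0.463 for Sema5a and 0.148 for Sema3a).

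**Figure D4:**
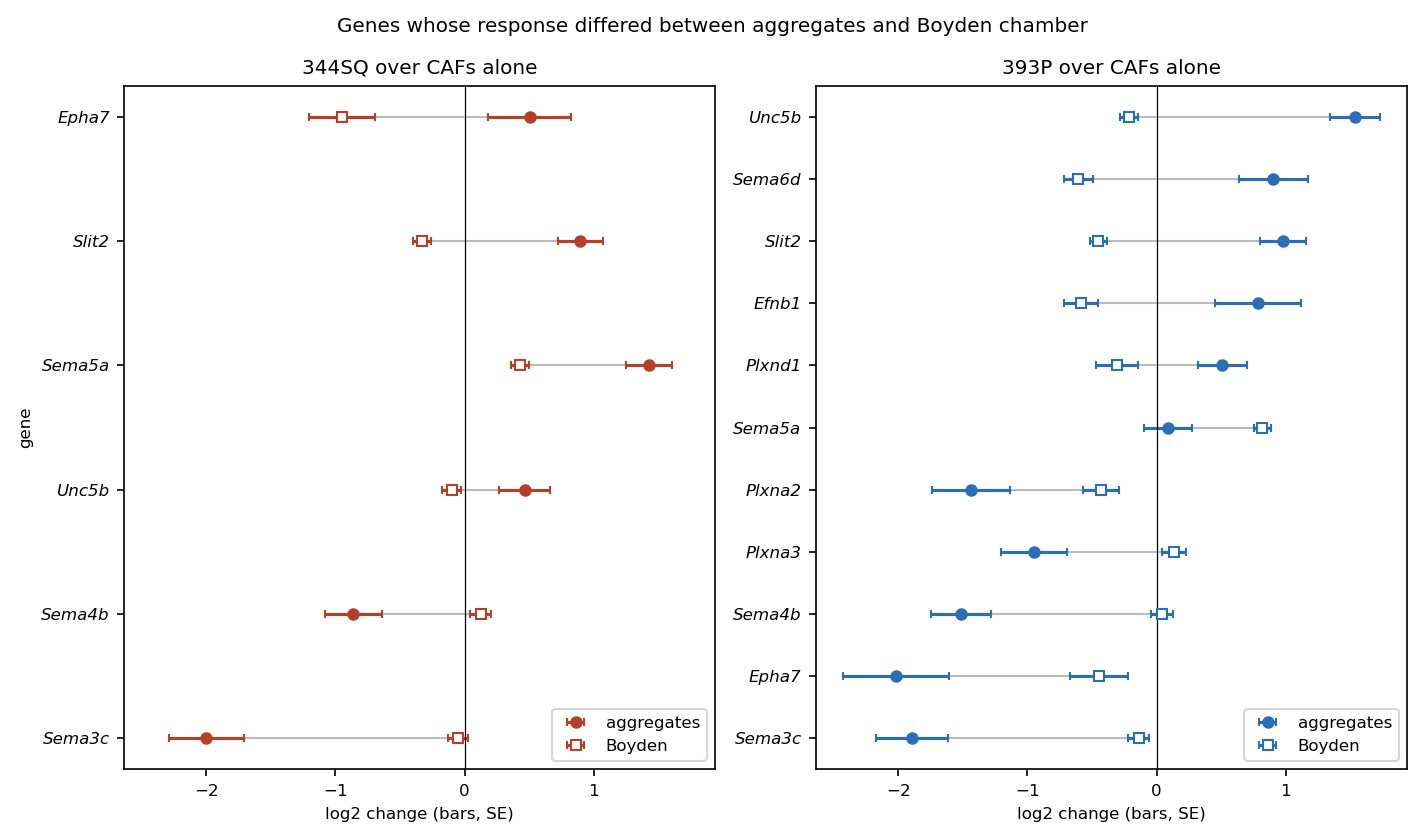
Log2 changes against CAFs alone in aggregates (filled circles) and Boyden chambers (open squares), with SE bars, for genes whose change differed between the formats and that were tested in both tables, for 344SQ (left) and 393P (right). Slit2 lies right of 0 in aggregates and left of 0 in Boyden chambers with both lines, and Sema3c lies near -2 in aggregates and near 0 in Boyden chambers.

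The neuropilins, which hold class 3 semaphorins for the plexins, belong to a list of 18 co-receptors and further ligands outside the rule. In aggregates 11 of the 18 were tested, and 3 rose and 2 fell with 393P (10.7% of all genes changed), while 3 rose and 1 fell with 344SQ (5.84% of all genes). Nrp1 rose with 393P (139.7 ± 23.8 against 44.2 ± 10.3 CPM in CAFs alone; SD, n = 3), by 1.69 ± 0.21 (adjusted p = 8.81e-07), with a log2 change of 0.40 ± 0.23 (adjusted p = 0.417) with 344SQ and of -1.29 ± 0.20 (adjusted p = 9.38e-05) for 344SQ against 393P. Nrp2 rose with both lines, by 1.93 ± 0.29 (adjusted p = 3.52e-05) with 344SQ and 1.94 ± 0.29 (adjusted p = 1.13e-05) with 393P. Gpc1, a heparan sulfate proteoglycan that binds Slits, rose by 1.48 ± 0.20 (adjusted p = 7.35e-06) with 344SQ and 1.79 ± 0.20 (adjusted p = 9.33e-08) with 393P. Flrt2, a ligand of Unc5 receptors, rose with 344SQ by 1.48 ± 0.20 (adjusted p = 7.14e-06). Met, the hepatocyte growth factor receptor that pairs with class B plexins, fell with both lines. Its log2 changes were -1.86 ± 0.38 (adjusted p = 0.00154) with 344SQ and -1.88 ± 0.37 (adjusted p = 0.000541) with 393P. Rgma, of the same list, fell with 393P (-1.17 ± 0.23, adjusted p = 0.000492). Between the lines Flrt2 was higher with 344SQ (1.28 ± 0.20, adjusted p = 6.48e-05).

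Across the membrane 12 of these 18 were tested, and 1 rose and 3 fell with 344SQ (14.9% of all genes changed), while 2 fell with 393P (15.6% of all genes). Nrp1 fell with 344SQ (78.5 ± 4.81 against 98.5 ± 2.83 CPM in CAFs alone; SD, n = 5), with a log2 change of -0.33 ± 0.06 (adjusted p = 0.0002), and changed by 0.03 ± 0.06 (adjusted p = 0.759) with 393P. Nrp2 rose with 344SQ by 0.68 ± 0.13 (adjusted p = 0.000828), and its log2 change with 393P was -0.02 ± 0.14 (adjusted p = 0.956). Between the lines, 344SQ against 393P, 1 rose and 1 fell: Nrp2 (0.69 ± 0.14, adjusted p = 0.00226) and Nrp1 (-0.36 ± 0.06, adjusted p = 0.000198). The change in Nrp1 with 393P was larger in aggregates than across the membrane by 1.75 ± 0.18 (adjusted p = 6.91e-10), and that in Nrp2 by 2.04 ± 0.30 (adjusted p = 2.74e-06).

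A list of 52 intracellular signalling genes of these pathways had 42 members tested in aggregates, of which 8 rose and 3 fell with 393P and 5 rose and 2 fell with 344SQ, beside the 10.7% and 5.84% of all genes that changed. Mical1, an enzyme that oxidises actin downstream of plexins, rose with 393P by 1.35 ± 0.20 (adjusted p = 8.43e-06). Ablim1, an actin-binding protein, fell with 393P (-1.98 ± 0.30, adjusted p = 1.72e-05). It was at 11.2 ± 1.33 CPM with 393P, 39.8 ± 4.16 CPM with 344SQ and 44.0 ± 12.3 CPM in CAFs alone (SD, n = 3). Between the lines, 344SQ against 393P, 1 was higher and 3 were lower: Ablim1 was higher (1.82 ± 0.31, adjusted p = 0.000194) and Mical1 lower (-1.15 ± 0.19, adjusted p = 0.000199). Across the membrane 45 were tested, of which 7 rose and 9 fell with 344SQ and 5 rose and 10 fell with 393P, beside 14.9% and 15.6% of all genes. Across the membrane 4 were higher with 344SQ than with 393P, beside 3.88% of all genes. Srgap1, which couples Robo receptors to Cdc42, fell with both lines, with log2 changes of -0.80 ± 0.09 (adjusted p = 3.96e-07) with 344SQ and -0.51 ± 0.08 (adjusted p = 0.000193) with 393P. Enah, an actin regulator that acts below Robo, rose with 344SQ by 0.49 ± 0.06 (adjusted p = 5.88e-07), and Kalrn rose by 0.61 ± 0.09 (adjusted p = 4.04e-05). With 393P the other smallest p-values were those of Micall1 (-0.67 ± 0.10, adjusted p = 7.97e-05), the Rac activator Tiam1 (-0.31 ± 0.05, adjusted p = 0.000303) and the kinase Pak1 (0.35 ± 0.06, adjusted p = 0.000434). Between the lines Kalrn (0.88 ± 0.10, adjusted p = 7.45e-07) and Rnd1 (0.78 ± 0.09, adjusted p = 2.18e-06) were higher with 344SQ.

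Aggregates with shZEB1 344SQ cells were compared with aggregates with shCTL 344SQ cells. Zeb1, the gene named by the shRNA, was at 144, 48.4 and 120.4 CPM with shZEB1 cells and 71.8, 105 and 50.3 CPM with shCTL cells (0.47 ± 0.53, adjusted p = 0.896). The libraries are sorted CAFs and the shRNA was carried by the cancer cells, so these values do not check the knockdown. None of the 29 guidance genes tested passed the threshold with edgeR, as 0% of the 7801 genes tested did, and none passed with DESeq2, which called 26 genes in all. At an unadjusted p under 0.05 there was 1 guidance gene among 466 genes, Plxnb1, the receptor of Sema4d. Plxnb1 was at 25.5, 113 and 45.5 CPM with shZEB1 cells and 20.5, 24.4 and 13.5 CPM with shCTL cells (1.63 ± 0.70, adjusted p = 0.799), lower in all 3 shCTL libraries than in any shZEB1 library. In this table the groups did not overlap for 3 of the 29 genes, against 11.7% of all genes.

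The replicates of the shRNA table were far apart. Robo1 was at 40.4, 7.34 and 5.77 CPM with shZEB1 cells and 10.9, 16.5 and 14.5 CPM with shCTL cells (0.38 ± 0.87, adjusted p = 0.954). Sema7a was at 11.4, 38.1 and 28.2 CPM with shZEB1 cells and 2.05, 3.15 and 35.8 CPM with shCTL cells (0.93 ± 1.01, adjusted p = 0.893). Both groups overlapped for both genes, with the highest Robo1 value in shZEB1 replicate 1. The highest Sema7a values were in shZEB1 replicate 2 and shCTL replicate 3, the libraries of their groups with the highest carcinoma marker sums. The 4 genes of highest level per kilobase overlapped too: Plxnb2 was at 589, 390.2 and 463 CPM with shZEB1 cells and 353, 375 and 564 CPM with shCTL cells, and Plxna1 at 741, 224 and 391 CPM with shZEB1 cells and 391, 605 and 242 CPM with shCTL cells. Unc5b was at 712, 358 and 170.4 CPM with shZEB1 cells and 207, 273 and 218 CPM with shCTL cells, and Plxnd1 at 99.2, 301 and 94.8 CPM with shZEB1 cells and 99.1, 94.6 and 206 CPM with shCTL cells. None of these 4 separated the groups, and all log2 changes among the 29 genes lay between -1.18 and 1.63. Slit2 was at 299, 232 and 138 CPM with shZEB1 cells and 438, 385 and 184 CPM with shCTL cells (-0.59 ± 0.47, adjusted p = 0.855), and the neuropilins Nrp1 and Nrp2 had log2 changes of 1.24 ± 0.57 (adjusted p = 0.799) and -1.93 ± 0.58 (adjusted p = 0.692).

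The libraries richest in carcinoma markers, shZEB1 replicate 2 and shCTL replicate 3, also held the highest levels of several guidance genes and the lowest of others. Plxna4 was at 8.34, 99.8 and 13.5 CPM with shZEB1 cells and 12.99, 10.2 and 94.8 CPM with shCTL cells. Sema3e was at 10.5, 95.4 and 14.7 CPM with shZEB1 cells and 2.05, 3.94 and 34.8 CPM with shCTL cells. Epha4 was at 3.07, 24.9 and 11.5 CPM with shZEB1 cells and 2.73, 0.788 and 22.2 CPM with shCTL cells. In each of these 3 genes the highest library of either group was one of this pair, as it was for Sema7a above. Slit3 and Plxna1 went the other way, with the lowest library of either group in this pair. Slit3 was at 188, 13.2 and 26.9 CPM with shZEB1 cells and 49.2, 85.1 and 12.6 CPM with shCTL cells. Sema4d was at 1.32, 204 and 0 CPM with shZEB1 cells and 2.05, 6.305 and 0.967 CPM with shCTL cells, high in shZEB1 replicate 2 alone. Sema4d did not pass the filter, and with no filter it was the only guidance gene called (log2 change 4.28, adjusted p = 0.00193), of 59 tested. With no filter 90 of all 21430 genes were called. Without this pair of libraries, an alternative chosen after the data were seen, 0 of 30 guidance genes passed the threshold, beside 1 of all 8437 genes.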

How the data were processed

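RNA was sequenced from CAFs sorted from aggregates and from CAFs of Boyden chambers. The authors deposited raw read counts per gene in 3 tables, 60 libraries in all. The processing notes of the submitters name STAR, HTSeq and the mm10 build, with no version, annotation release or strand setting. Gene positions came from GENCODE M21, where 48058 of 48440 stable gene IDs matched and 48 of the 64 guidance genes had the same version. For Boyden chambers the 3 technical libraries of a replicate were added up.

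Fits ran within each table with edgeR 4.0.16 (R 4.3.3, limma 3.58.1): filterByExpr by group, TMM scaling, 1 mean per group and the quasi-likelihood test, with Benjamini-Hochberg adjustment over all genes tested. Aggregate and Boyden counts were also fitted together to test differences between log2 changes. Levels are CPM on TMM-scaled library sizes, so they compare only within a table. Ribosomal-like and mitochondrial genes took 40.5% to 49.2% of aggregate counts, 43.4% to 59.5% of shRNA counts and 11.2% to 15.3% of Boyden counts. DESeq2 1.42.0, other scalings, no filter, removal of those genes, a replicate block, single technical libraries and leaving out each replicate were alternatives. The fits were tested on simulated counts. Gene lists and members were chosen with earlier results of these data known. Called genes were named with all values; of those tested but not called, up to 4 of highest level per table were named, as were Sema7a, Robo1, Plxnc1, Nrp1 and Nrp2, and up to 4 called genes of the further lists per comparison, by smallest p. Genes named beside the carcinoma markers in the shRNA table and Epha1 were chosen after their values were seen.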

Additional observations from a re-analysis of the deposited data

Results flagged for a closer look

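In 6 of the 57 Boyden groups checked, 1 replicate stood far from the other 4 for a guidance gene that changed; chance gives about 1 in 20 groups. With 344SQ this was Ephb3 in replicate 5, at 43.2 CPM. With 393P it was replicate 2 for Epha4 (15.99 CPM) and for Sema3a (134 CPM), both above the other replicates. In CAFs alone Unc5b was low in replicate 2 (76.6 CPM), Sema3f was low in replicate 3 (22.9 CPM) and Sema6b was high in replicate 4 (2.13 CPM).

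The change with a cancer line differed between aggregates and Boyden chambers, by the test of the difference itself, in 30 results. With 393P the log2 differences, aggregates minus Boyden, were Sema7a 4.23, Robo1 3.55, Unc5b 1.84, Sema6d 1.60, Slit2 1.51, Efnb1 1.45, Plxnd1 0.89, Sema5a -0.66, Plxna2 -0.93, Plxna3 -1.002, Sema4b -1.48, Epha7 -1.52, Sema3c -1.69, Sema3e -2.18 and Epha1 -3.42. With 344SQ they were Sema7a 2.52, Epha7 1.49, Slit2 1.27, Sema5a 1.04, Unc5b 0.62, Sema4b -0.93, Sema3c -1.89, Epha1 -2.49 and Sema3e -4.80. The fitted value of Sema3e with 344SQ rests on 1 count in the 344SQ aggregates and depends on the prior count, so it is not a bound. For 344SQ minus 393P they were Epha7 3.01, Sema3a 1.84, Sema5a 1.70, Unc5b -1.22, Plxnd1 -1.63 and Robo1 -2.55. The cultures, the depth and the share of ribosomal counts all differed between the formats, and their part in these differences cannot be told apart.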

How the results depend on the processing

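Of the 86 results in which a guidance gene was called, 46 kept the call under every alternative run and 40 lost it under at least 1. Among 1580 alternative values, 1427 stayed on the same side of the threshold in the same direction, 153 lost the call and 0 turned the direction. Using 1 technical library per Boyden replicate, the first, gave 4 genes in place of 13 with 344SQ, 5 in place of 16 with 393P, 1 in place of 4 between the lines, and 5 in place of 9 for the 344SQ change in aggregates minus Boyden. Of all genes, 500, 609 and 73 of 10417 and 364 of 10760 were called in that order. The main fits called 2087, 2195 and 545 of 14040 and 719 of 15193. Fewer counts enter the fits with 1 technical library. With no filter on low counts 1 gene was called for shZEB1 against shCTL in place of 0, beside 90 of all 21430 genes in place of 0 of 7801. DESeq2, another scaling (relative log expression or upper quartile), removing ribosomal-like and mitochondrial genes, and fitting only the compared groups left every count of called genes within 1.5 times.

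Leaving out 1 replicate at a time gave 9 to 13 called genes for 393P and 5 to 9 for 344SQ in aggregates, 6 to 8 between the lines, and 0 in each case for shZEB1 against shCTL. Of all 8305 to 8514 genes tested in aggregates, 625 to 770, 284 to 421 and 244 to 314 were called in that order, and 0 for shZEB1. Across the membrane it gave 9 to 13 for 344SQ, 11 to 16 for 393P and 3 to 5 between the lines. Beside these, 1581 to 2774, 1581 to 2289 and 378 to 759 of all 14134 to 14289 genes tested were called. For the differences between formats it gave 11 to 16 with 393P, 7 to 10 with 344SQ and 5 to 8 for the lines. Beside these, 1106 to 1380, 565 to 797 and 372 to 502 of all 14923 to 15922 genes tested were called. With the replicate number as a block the counts were 10, 6 and 7 in aggregates (393P, 344SQ, between the lines), 0 for shZEB1, 11, 15 and 4 across the membrane (344SQ, 393P, between the lines), and 16 and 8 between the formats (393P, 344SQ). In the same order, all genes called were 870, 467 and 321 of 7992, then 1 of 7801. They were 1767, 1796 and 426 of 14040 across the membrane, and 1276 and 664 of 15193 between the formats. The deviations of same-numbered samples correlated at -0.03 to 0.07 in aggregates, -0.03 to 0.13 in the shRNA table and -0.30 to 0.26 in Boyden chambers, over 0.1 in 0 of 9, 1 of 3 and 1 of 15 pairs, so the numbers were not taken to pair samples. Depth limits the low genes: the aggregate tests hold 7992 genes against 14040 in Boyden chambers, and the biological coefficient of variation was 16.2% in aggregates, 61.7% in the shRNA table and 8.58% in Boyden chambers.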
